A study of Homo sapiens with 6 samples.

Results

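Mitochondrial ribosomal protein (MRP) genes were followed in residual MHCC97H cells that had been exposed to periostin (POSTN) or not. MHCC97H is an established human line of hepatocellular carcinoma (HCC), and the residual cells are those that survived a sublethal heating at 47 °C. The control group was cultured with POSTN at 0 ng/mL and the POSTN group with recombinant POSTN at 100 ng/mL, both for 24 h, with 3 samples in each group. All 6 samples had been heated, so that unheated cells are not part of the comparison, and all came from 1 cell line. POSTN, which activated stellate cells release in the liver, is a matrix protein and a ligand of integrins. A single Affymetrix U133 Plus 2.0 array was used for the total RNA of each sample, and it reads a gene with 1 or more probe sets. The study asked which transcripts of the residual cells respond to POSTN.

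An MRP gene was taken as any gene with a symbol made of MRPL or MRPS and a number, on a probe set annotated with that symbol alone. The rule found 77 of the 19775 genes with such a probe set. Of these, 75 code for a protein, 48 named for the large subunit (MRPL) and 27 for the small subunit (MRPS). The others were an antisense transcript, MRPL20-AS1, and a pseudogene, MRPL45P2, which are described apart. The 75 genes had 140 probe sets, and the brightest one by the mean of the 6 arrays was used for each gene. A probe set can end in _s_at, which marks probes shared by several transcripts, or in _x_at, which marks probes that may bind other transcripts. The brightest probe set was an _s_at one for 43 MRP genes, an _x_at one for 3 and neither for 29. MRPS24, MRPL53 and MRPS36 had no probe set of their own symbol alone in the table used here and were not analysed here.

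Mitochondrial ribosomes, or mitoribosomes, translate the few messages that the mitochondrial genome encodes, all of them for subunits of the respiratory chain and the ATP synthase. Their RNA is made in the mitochondrion, but every one of their proteins is encoded in the nucleus, made in the cytosol and imported. The small subunit holds the decoding centre, where messenger and transfer RNA meet, and the large subunit holds the peptidyl transferase centre, the stalk that receives translation factors and the exit tunnel. Many MRPs have a counterpart in bacterial ribosomes and the others are particular to mitochondria. Structures of the mitoribosome place 2 proteins with an MRPS symbol, MRPS18A and MRPS30, in the large subunit, so the subunit was counted by symbol and, where it matters, also by structure.

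The nuclear genes of mitochondrial proteins are known to carry binding sites of NRF1, of ETS factors such as GABPA, and of YY1 near their start sites. RefSeq promoters (GRCh38.p14, 250 bases before to 50 after the start) were found for 67 of the 75 MRP genes. The letters CCGGAAG, an ETS core, stood on either strand in 28 of the 67 (41.8%), against 10.7% of all 27305 promoters and 14.2% of the 15842 protein-coding ones. AAGATGGC, a YY1 core, stood in 19 (28.4%), against 3.03% and 3.91%. The NRF1 motif, GCGCA and GCGC parted by 1 base of any kind, stood in 8 (11.9%), against 6.28% and 8.57%. At least 1 of the 3 motifs stood in 43 MRP promoters (64.2%), against 17.9% and 23.6%, with 63.4% for the large and 65.4% for the small subunit. The ETS and YY1 letters can overlap by the bases AAG, and a match is only a description of the sequence. The 5 stretches of 30 bases below lie before the start sites of members to which the results return, with the motif, or its reverse complement, in capitals and the sequence read 5′ to 3′ on the strand of the gene.
MRPL3, ETS, chr3:131502985-131503014, minus strand: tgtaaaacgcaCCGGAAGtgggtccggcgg
MRPL36, NRF1, chr5:1799928-1799957, minus strand: tcgcactccaGCGCCTGCGCactcgctgct
MRPL36, YY1, chr5:1799854-1799883, minus strand: ccccccccgccGCCATCTTccttcctggca
MRPS10, ETS, chr6:42217865-42217894, minus strand: ccgctgtaaccCCGGAAGcaatcctgagag
MRPS21, ETS, chr1:150293831-150293860, plus strand: ggcgattccgtaatttccgCTTCCGGtagt
The letters of none of the 3 motifs were found in the windows of MRPL12 and MRPS11. MRPS11 lies head to head with MRPL46, and the promoter windows of this pair share 181 bases, the one pair of MRP genes with a shared window. The median POSTN minus control difference was -0.021 on the log2 scale for the 28 genes with the ETS letters and -0.025 for the 39 without. It was -0.054 for the 8 genes with the NRF1 motif and -0.024 for the 59 without, and -0.016 for the 19 with the YY1 letters and -0.025 for the 48 without, all descriptions with no test.

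All 75 MRP genes were expressed in these cells. The values are log2 signals, and a probe set counted as above background when its mean exceeded 5.98, the level under which 95% of 107 olfactory receptor probe sets lay. The means of the MRP genes ran from 8.48 for MRPL2 to 13.77 for MRPL3. Of all 19775 genes 11550 were above background. Of the 140 MRP probe sets 127 were, and of all 54613 probe sets 25320. Brightness differs between probe sets for reasons of probe chemistry, so these levels set no order between genes. The labelled cell type was checked against markers. Of 12 hepatocyte and HCC markers measured, 8 were above background, with the keratins KRT8 (13.96) and KRT18 (15.02), AFP (8.996), TF (8.38), FGB (7.99), ALB (6.55), TTR (6.38) and APOB (6.02). APOA1, APOA2, SERPINA1 and GPC3 were within the background range in the mean of the 6 arrays. ALB, TTR and APOB each had a lowest array under 5.98 (5.65, 5.83 and 5.26). Of 9 stellate cell and fibroblast markers 3 were above background, LUM (11.17), DCN (9.26) and COL1A1 (8.22), while ACTA2, COL1A2, COL3A1, PDGFRB, DES and POSTN were within it. The endothelial marker PECAM1 (10.10) and the leukocyte marker CD3E (6.19) were also above background, each 1 of 3 measured in its class.

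**Figure D1:**
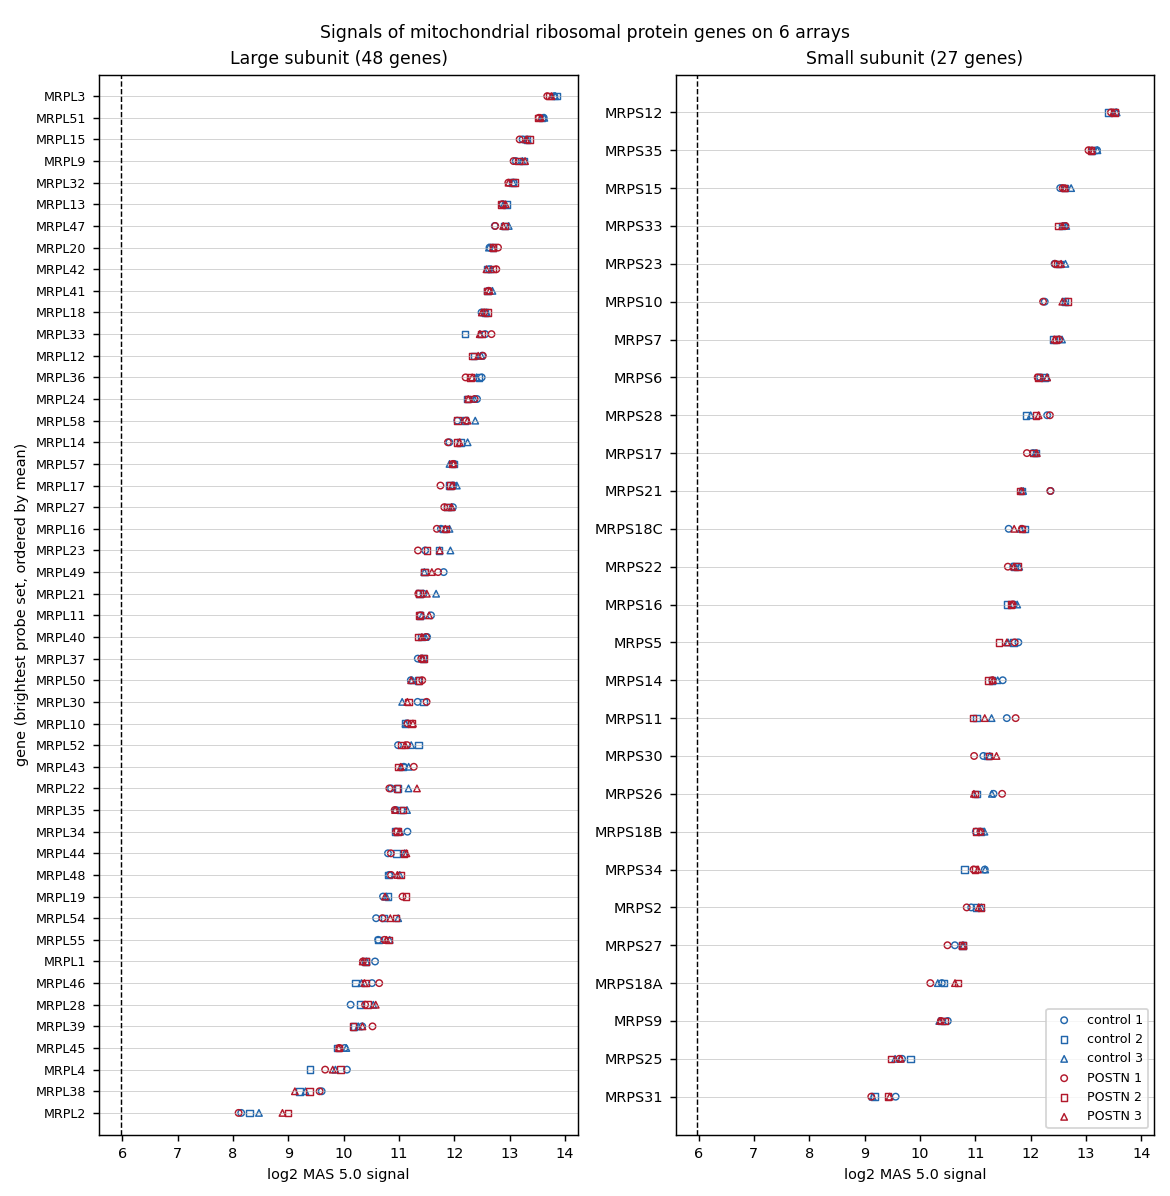
Log2 signal of the brightest probe set of each MRP gene on the 6 arrays, large subunit (48 genes) and small subunit (27 genes) in separate panels, genes ordered by their mean. Each mark is 1 array, with a dashed line at 5.98 for the background level. Every MRP gene lies above the line, from MRPL2 at a mean of 8.48 to MRPL3 at 13.77, and the 6 marks of most genes lie close together.

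The MRP genes varied little among the 6 arrays. The range from the lowest to the highest array had a median of 0.229 on the log2 scale over the 75 genes. It was smallest in MRPL57 (0.083), a mitochondria-specific protein of the large subunit. MRPL41, also mitochondria-specific and with a range of 0.091, was at 12.62, 12.60 and 12.69 on the control arrays and at 12.62, 12.60 and 12.64 on the POSTN arrays. It was largest in MRPL2, and it passed 0.5 in 6 genes (MRPL2, MRPS11, MRPL4, MRPL23, MRPS21 and MRPS26). The SD within a condition had a median of 0.092 over the MRP genes, against 0.151 over the 7672 genes whose mean signals lie between those of MRPL2 and MRPL3, 0.188 over all genes above background and 0.373 over all genes. Lists of similar function had like values, with 0.093 for nuclear subunits of the respiratory chain, 0.094 for cytosolic ribosomal proteins and 0.080 for the mitoribosomal proteins with other symbols. Of the genes in that signal range, 21.3% had an SD at or under the MRP median. The range is not matched in brightness, with a median signal of 10.48 against 11.58 for the MRP genes. The part of brightness in the lower spread was not tested. The lowest correlation between any 2 arrays over the MRP genes was 0.976, which also reflects the constant differences in brightness between probe sets.

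**Figure D2:**
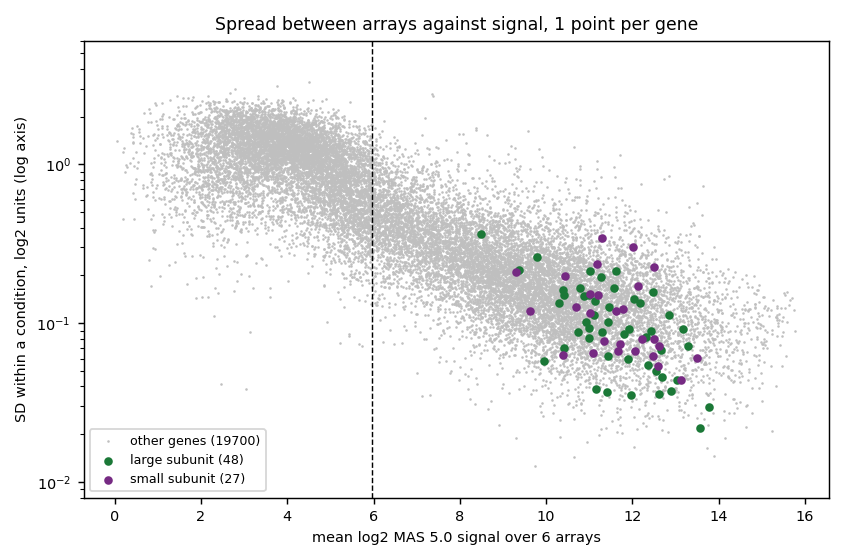
SD of the log2 signal within a condition against the mean log2 signal, 1 point per gene, with large-subunit genes in green, small-subunit genes in purple and the other genes in grey. The MRP genes lie at mean signals from 8.48 to 13.77 and mostly in the lower part of the cloud, with a median SD of 0.092 against 0.151 for genes of the same signal range. The median signal over that range is lower, 10.48 against 11.58.

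POSTN was compared with control first. None of the 75 MRP genes passed limma's moderated test between the conditions (lowest adjusted p = 0.9999), and the same test called 0% of all 19775 genes. At an unadjusted p under 0.05 the count was 0 of 75, against 2.48% of all genes. At the study's thresholds, an unadjusted p under 0.05 with a fold change over 2 or under 0.5, it was 0 of 75, against 2.07%. The methods' t-test gave 3 MRP genes (4%) at an unadjusted p under 0.05, namely MRPL3, MRPL36 and MRPL51, against 3.1% of all genes, and 0 at the study's thresholds, against 1.62%. The difference between the means was under 0.1 on the log2 scale in 62 MRP genes and under 0.2 in 73. The 95% confidence interval of the difference lay within 0.5 log2 of 0, on either side, in 74 of the 75, the exception being MRPL2. The replicates are numbered samples whose labels do not say that they came from separate cultures, and the p-values cover no more than the spread of these arrays, which may be technical.

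MRPL3, a protein near the peptidyl transferase centre, was at 13.81, 13.84 and 13.82 in the control group and at 13.68, 13.72 and 13.76 in the POSTN group. The 3 POSTN arrays were all below the 3 control arrays, and the difference was -0.11 ± 0.073 (SE, n = 3 per group, limma adjusted p = 0.9999). MRPL36, a small zinc-binding protein of the large subunit, was at 12.50, 12.45 and 12.40 in control and at 12.20, 12.29 and 12.32 with POSTN. Here too the conditions did not overlap, with a difference of -0.18 ± 0.081 and the lowest unadjusted p of any MRP gene in the limma fit, 0.054. MRPL51 (-0.073) and MRPS35 (-0.091), both mitochondria-specific, were likewise lower on all 3 POSTN arrays. MRPL10, which anchors the stalk, was at 11.15, 11.11 and 11.12 in control and at 11.16, 11.23 and 11.25 with POSTN, and MRPL20 was at 12.64, 12.70 and 12.63 in control and at 12.79, 12.70 and 12.70 with POSTN. At full precision these 2 genes were higher on every POSTN array than on any control array, by 0.086 and 0.077 between the means. In all, the conditions did not overlap in 6 of 75 MRP genes (8%), close to the 7.13% of all genes and above the 4.98% of genes above background. With the arrays set side by side by number, 10 MRP genes (13.3%) were lower with POSTN at each of the numbers, against 13.2% of all genes, and 7 (9.33%) were higher at each, against 12.2%.

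MRPL2, of the peptidyl transferase region, was at 8.15, 8.30 and 8.47 in control and at 8.10, 8.99 and 8.89 with POSTN. The POSTN array numbered 1 was the lowest of all 6 and the other two were the highest, and the difference of 0.36 ± 0.24 had a 95% interval from -0.17 to 0.88. MRPL19 was at 10.71, 10.80 and 10.77 in control and at 11.06, 11.13 and 10.75 with POSTN, a difference of 0.22 ± 0.12 with the third POSTN array inside the control range. MRPL28 was 0.15 higher in the mean. MRPL23, at the exit tunnel, was 0.18 lower in the mean, and its values follow with the replicate numbers. In the small subunit the largest differences were smaller still, with MRPS28 0.13, MRPS18A 0.12 and MRPS31 0.04 higher in the mean, and MRPS5 0.12, MRPS14 0.11 and MRPS25 0.10 lower.

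Members often studied for their roles showed differences that were small beside their spread. MRPL12, a stalk protein also known to bind the mitochondrial RNA polymerase, was at 12.51, 12.35 and 12.49 in control and at 12.52, 12.33 and 12.43 with POSTN, with the conditions overlapping (-0.024, 95% interval -0.22 to 0.17). MRPS12, of the decoding centre, was at 13.54, 13.41 and 13.55 in control and at 13.45, 13.52 and 13.49 with POSTN (-0.015, interval -0.19 to 0.16). MRPL11, at the base of the stalk, differed by -0.025, MRPL44 by 0.073 and MRPL41 by -0.016. Of the proteins whose inherited defects impair mitochondrial translation, MRPS16 differed by -0.016, MRPS22 by -0.047, MRPS34 by -0.049 and MRPS7 by -0.032. The MRPS18 protein has 3 variants encoded by separate genes, which differed by 0.12 (MRPS18A), -0.026 (MRPS18B) and 0.022 (MRPS18C), and MRPS30 differed by -0.0053. These intervals bound the differences but do not show that they are 0.

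The large and the small subunit were set side by side. The median POSTN minus control difference was -0.016 over the large-subunit genes and -0.027 over the small-subunit genes, against 0.00015 over all genes and -0.0078 over all genes above background. The medians of the subunits differed by 0.011. On single arrays the large minus small difference of the median deviations was -0.046, -0.025 and -0.017 in control and 0.0056, 0.011 and 0.0057 with POSTN, so that the conditions did not overlap, a description with no test. Of the 48 large-subunit genes 28 were lower in the POSTN mean and 20 higher. Of the 27 small-subunit genes 23 were lower (85.2%) and 4 higher (MRPS28, MRPS18A, MRPS31 and MRPS18C), where 49.9% of all genes were lower. Among genes above background 6104 of 11550 were lower, and in the MRP signal range 4129 of 7672. Cytosolic ribosomal proteins (53 of 59 lower) and nuclear subunits of the respiratory chain (50 of 70) leaned the same way. With MRPS18A and MRPS30 counted by structure, 22 of 25 small-subunit genes and 29 of 50 large-subunit genes were lower. None of these genes passed the test on its own, genes of 1 array are not independent, and the split moves with the scaling. After quantile normalization 21 small-subunit and 26 large-subunit genes were lower, and after centring each array on its median 25 and 35 were, with the median of all genes then at -0.051 and 60.9% of all genes lower. On single arrays the median deviation of the small-subunit genes from their own means was 0.029, -0.0059 and 0.061 in control and -0.035, -0.025 and 0.0076 with POSTN, lower with POSTN at each number, although the control array numbered 2 lay below the POSTN array numbered 3. For the large-subunit genes it was -0.017, -0.031 and 0.044 in control and -0.029, -0.014 and 0.013 with POSTN. Genes with a bacterial counterpart (46, median -0.025) and mitochondria-specific genes (29, median -0.016) were also close to each other.

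**Figure D3:**
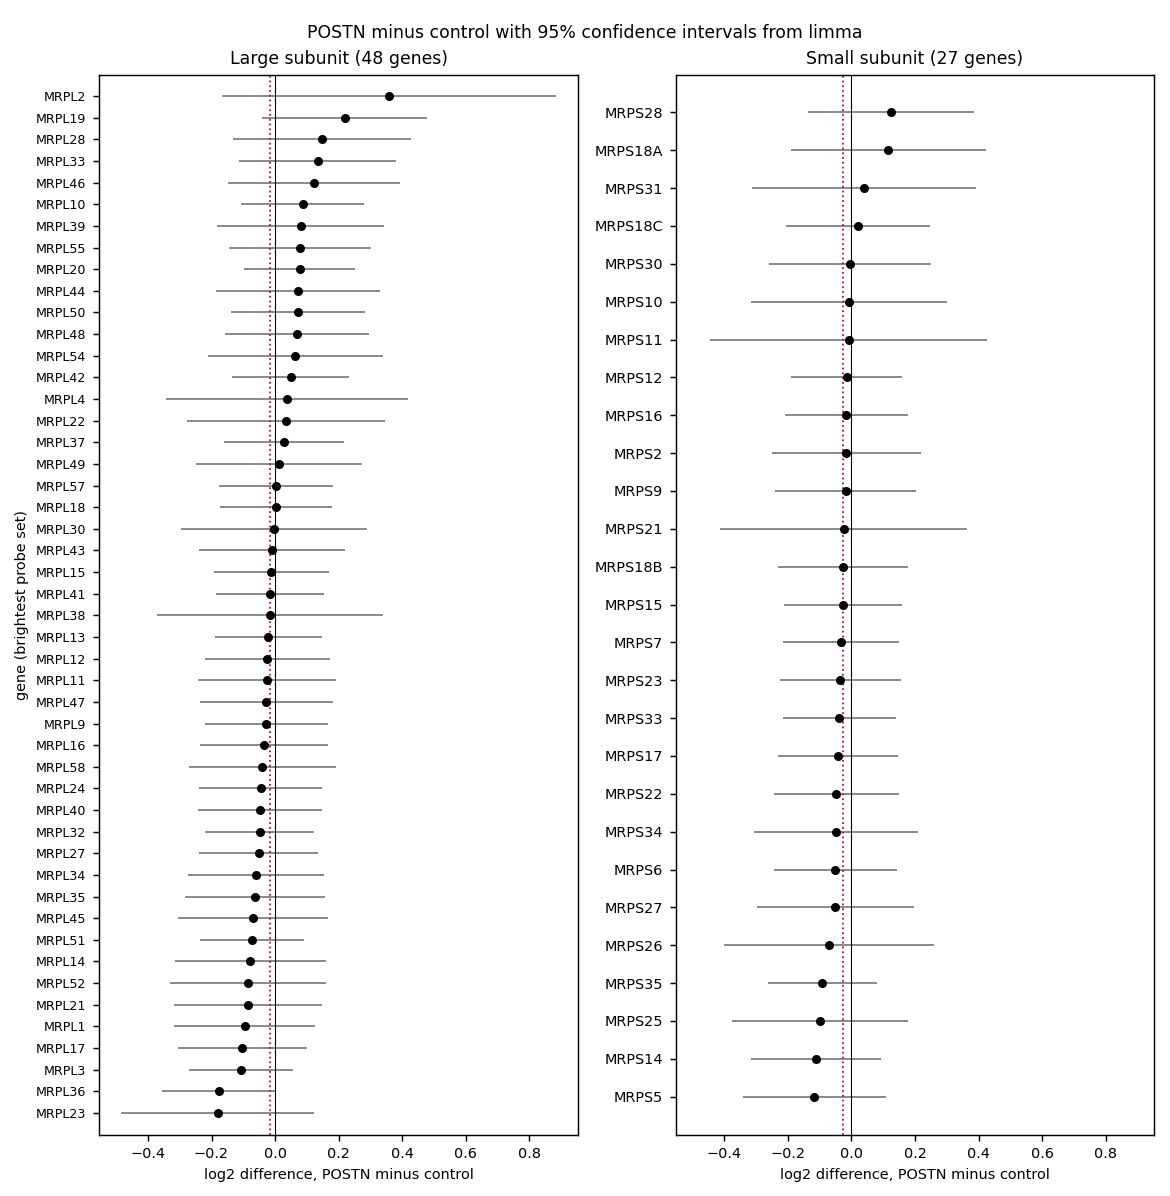
POSTN minus control difference of each MRP gene on the log2 scale with its 95% confidence interval from limma (n = 3 arrays per condition), large and small subunit in separate panels, genes ordered by the difference. The dotted red line marks the median of the subunit, -0.016 and -0.027. The intervals of 74 of the 75 genes stay within 0.5 of 0, and that of MRPL2 reaches 0.88.

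The labels give each condition the replicate numbers 1, 2 and 3, and the MRP genes were next compared between numbers, with condition as a term in the fit. What a number stands for is not stated in the sources used here. If same-numbered arrays share an origin, number 1 is a single unit. The p-values between numbers then cover only the spread of the arrays. Number 1 against the mean of numbers 2 and 3 gave 5 calls among the 75 MRP genes (6.67%), against 9.82% of all genes, 16.6% of the genes above background and 20.8% of those in the MRP signal range. Of the 5, 3 were higher at number 1 (4%), against 5.08% of all genes and 8.64% of those above background, and 2 were lower (2.67%), against 4.73% and 7.95%. The arrays of number 1 did not overlap with those of the other two numbers in 31 MRP genes (41.3%), against 31.6% of all genes and 43.8% of those above background. The size passed 0.25 on the log2 scale in 11 MRP genes (14.7%), against 32.8% of the genes in the signal range. In the POSTN comparison it passed 0.25 in 1 MRP gene (1.33%), against 2.72%. Genes of that range are dimmer in the median than the MRP genes (10.48 against 11.58). The part of brightness in these shares was not tested.

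The calls were 4 small-subunit proteins and 1 large-subunit protein, all of bacterial type. MRPS21 was at 12.36, 11.84 and 11.86 on the control arrays numbered 1, 2 and 3 and at 12.36, 11.80 and 11.83 on the POSTN arrays. Both arrays numbered 1 were higher than the other 4, and MRPS21 was 0.52 ± 0.059 (SE, n = 2 arrays of number 1 against 4) higher at number 1, a fold change of 1.44 (limma adjusted p = 0.0004). MRPS11 was at 11.57, 11.02 and 11.29 in control and at 11.73, 10.96 and 11.17 with POSTN, again highest on both arrays numbered 1 and lowest on both numbered 2, and rose by 0.54 ± 0.077 at number 1 (adjusted p = 0.0019). MRPS28 was at 12.30, 11.91 and 12.001 in control and at 12.35, 12.10 and 12.14 with POSTN. It was 0.28 ± 0.061 higher at number 1 (adjusted p = 0.019), and this call was lost without the control array numbered 1 (0.23, adjusted p = 0.19), without the control array numbered 3 (0.28, adjusted p = 0.068) or without the POSTN array numbered 3 (0.29, adjusted p = 0.055).

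MRPS10 was at 12.25, 12.62 and 12.62 in control and at 12.22, 12.68 and 12.57 with POSTN. It was lowest on both arrays numbered 1 and fell by 0.38 ± 0.058 there, a fold change of 0.767 (adjusted p = 0.0027). MRPL23 was at 11.47, 11.72 and 11.93 in control and at 11.34, 11.50 and 11.74 with POSTN. In both conditions it was lowest at number 1 and highest at number 3, and its difference at number 1 was -0.31 ± 0.064 (adjusted p = 0.014), a call lost without the control array numbered 1 (-0.28, adjusted p = 0.13). MRPS10, MRPS11 and MRPS21 were called whichever array was left out. All 5 calls were made on _s_at probe sets and rest on letting the prior variance change with signal. With 1 prior variance for all signals, 0 MRP genes and 0 of all genes were called by limma, and the unadjusted p-values of the 5 were 0.030 (MRPS21), 0.038 (MRPS11), 0.068 (MRPS10), 0.10 (MRPL23) and 0.13 (MRPS28).

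The other probe sets of these genes were read as well. Both further probe sets of MRPS10 were lower at number 1 but not called (-0.17 and -0.12), and the second probe set of MRPS11, near background at 6.68, differed by 0.22 and was not called. MRPS22, of the small subunit, was not called on its brightest probe set (-0.10, adjusted p = 0.48), while 2 dimmer ones were, at -0.25 (adjusted p = 0.046) and -0.45 (adjusted p = 0.011). MRPS23 gave opposite signs, with -0.11 on its bright probe set and 1.13 (adjusted p = 0.037) on a dim one with a mean of 7.12. Among further members, MRPL2 (0.09 against -0.54), MRPL30 (-0.24 to 0.49), MRPL41 (-0.55 to 0.31), MRPS25 (-0.10 to 0.44) and MRPS30 (-0.22 to 0.33) had probe sets above background of opposite sign that differed by over 0.5. MRPL30 also did so between the conditions, from -0.27 to 0.41. Between numbers 2 and 3 the same held for MRPL35, MRPL42, MRPL50, MRPL52 and MRPS12.

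Members that did not pass the test at number 1 included MRPL38 (0.33), MRPL49 (0.26, adjusted p = 0.053) and MRPL46 (0.25), the neighbour of MRPS11, which was at 10.51, 10.21 and 10.32 in control and at 10.64, 10.39 and 10.38 with POSTN. MRPL22, which like MRPL23 lines the exit tunnel, differed by -0.27 (adjusted p = 0.059) and MRPL2 by -0.54. In the small subunit MRPS26 differed by 0.33 (adjusted p = 0.062), MRPS18A by -0.23 and MRPS30 by -0.22. The median over the MRP genes was -0.016, with -0.020 for the large and 0.0028 for the small subunit, and after quantile normalization or median centring the median over all MRP genes turned positive (0.016 and 0.0011). Some hepatocyte and HCC markers moved with the numbers. ALB, SERPINA1, TF and FGB were called higher at number 1 (1.85, 2.92, 2.83 and 2.65), 4 of 12 measured. The others were not called. Of them AFP (0.12) and APOA1 (1.80) were higher at number 1, while APOB (-0.65), APOA2 (-1.37), TTR (-0.44), KRT8 (-0.035), KRT18 (-0.16) and GPC3 (-0.021) were lower. The mean log2 signal of the 12 was 8.18 to 8.25 on the arrays numbered 1 and 7.21 to 7.63 on the others. Of the 9 stellate cell and fibroblast markers DCN alone was called (-1.002), and their mean was 6.29 to 6.31 at number 1 and 5.99 to 6.71 on the others. Among 3 endothelial markers PECAM1 was called higher at number 1 (0.51, adjusted p = 0.010), while VWF and CDH5 were within the background range, and none of 3 leukocyte markers was called. The part of these markers in the MRP differences was not tested.

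Numbers 2 and 3 were compared with each other. No MRP gene was called (lowest adjusted p = 0.64), and 0% of all genes were. At an unadjusted p under 0.05 the count was 4 of 75 (5.33%), all lower at number 2 (MRPL21 -0.22, MRPL22 -0.27, MRPL23 -0.22 and MRPS11 -0.24), against 6.15% of all genes. The median over the MRP genes was -0.060, with -0.055 for the large and -0.060 for the small subunit, and 54 of 75 genes were lower at number 2. Over the genes of the MRP signal range the median was -0.020, with 4353 of 7672 lower, and over all genes it was -0.0074, with 10141 of 19775 lower. The control array numbered 2 decided much of this median, which was -0.016 without it. MRPL19 (0.21), MRPL30 (0.20) and MRPL50 (0.13) in the large subunit and MRPS18C (0.11), MRPS18A (0.08) and MRPS9 (0.06) in the small subunit were highest on the other side. MRPS34 (-0.21) and MRPS26 (-0.13) were the lowest in the small subunit after MRPS11.

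Whether the POSTN difference depended on the number was tested with an interaction term, the POSTN minus control difference at number 1 minus that at numbers 2 and 3. The difference at number 1 rests on 1 control and 1 POSTN array, so each value below hangs on these single arrays. No MRP gene was called (lowest adjusted p = 0.99) and 0% of all genes were. At an unadjusted p under 0.05 there were 5 MRP genes (6.67%), against 4.6% of all genes, namely MRPS31 (-0.72), MRPL4 (-0.65), MRPS18A (-0.49), MRPL52 (0.37) and MRPS18C (0.33). MRPS31 was at 9.56, 9.17 and 9.14 in control and at 9.12, 9.42 and 9.45 with POSTN, so that POSTN was lower at number 1 and higher at the other numbers. MRPL4 was at 10.06, 9.39 and 9.85 in control and at 9.67, 9.94 and 9.80 with POSTN.

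A block for replicate number was added to the fit because same-numbered arrays deviated together, most clearly at number 1. Over the MRP genes array deviations from the mean of their condition correlated between control and POSTN of 1 number at 0.544, 0.265 and 0.408 for numbers 1, 2 and 3, a description over 75 genes that share the arrays. The POSTN array numbered 2 correlated slightly better with the control array numbered 3 (0.304) than with its own number. With the block, POSTN minus control gave 0 calls among the MRP genes (lowest adjusted p = 0.97) and 0% of all genes were called (lowest adjusted p = 0.25). Unadjusted p-values under 0.05 with the block were found for 5 MRP genes (6.67%), against 4.76% of all genes, namely MRPL23 (0.012), MRPL36 (0.013), MRPL19 (0.026), MRPL3 (0.045) and MRPL2 (0.047).

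The genes that work with the mitoribosome were described from lists. No gene of any list was called between POSTN and control, where 0% of all genes were. At number 1, to which the calls below belong, 9.82% of all genes and 16.6% of those above background were called. Of mitoribosomal proteins with other symbols, the 4 measured (DAP3, PTCD3, CHCHD1 and GADD45GIP1) differed by -0.054 to 0.20. Of 26 factors for assembly and ribosomal RNA, MTERF3, which acts on ribosomal RNA and assembly, was called higher at number 1 (0.24, adjusted p = 0.045), and none was called lower. MTERF4 (0.26) and RCC1L (-0.15) had the largest POSTN differences above background. None of 14 genes listed under mitochondrial translation was called, with LETM1 (0.16) and the elongation factor TUFM (-0.066) at the extremes between the conditions. YARS2, which charges mitochondrial tyrosine transfer RNA, was the 1 gene called among 18 aminoacyl-tRNA synthetases. It was at 9.98, 10.76 and 10.86 in control and at 10.65, 11.23 and 11.05 with POSTN, and fell by 0.66 at number 1 (adjusted p = 0.0023). None of 13 genes of mitochondrial transcription and messenger RNA was called. Of 10 regulators of nuclear genes for mitochondria, MYC was called higher at number 1 (0.28, adjusted p = 0.014), and GABPA, an ETS factor, differed by 0.10 between the conditions.

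The products of mitochondrial translation join nuclear-encoded subunits of the respiratory chain. Of the 70 genes of that list, 50 were lower in the POSTN mean, with a median difference of -0.035. At number 1, COX5A (0.23), COX7C (0.19), NDUFA3 (0.31) and NDUFA2 (0.32) were called higher and NDUFB10 (-0.36) lower, 5 of 70. The same test called 9.82% of all genes and 16.6% of those above background. Cytosolic ribosomal proteins, which serve the other ribosome of the cell, had a median POSTN difference of -0.064, with 53 of 59 genes lower in the mean. On single arrays their median deviation was -0.027, 0.044 and 0.082 in control and -0.16, 0.015 and 0.024 with POSTN. The POSTN array numbered 1 was by far the lowest, and it enters both the POSTN and the number 1 medians of these genes. At number 1 their median was -0.13, with 7 of 59 called lower (RPS19, RPL37A, RPL27, RPL24, RPL10A, RPL19 and RPL22) and none higher. RPL24, with the largest of these, fell by 0.24 (adjusted p = 0.011). Of all genes 4.73% were called lower at number 1, and of those above background 7.95%. The MRP genes had a median of -0.016 there, with 3 called higher and 2 lower. The difference between the lists was not tested.

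The transcripts matched by symbol that code for no MRP were read last. MRPL20-AS1, antisense to MRPL20, was at 7.66, 7.49 and 7.16 in control and at 7.59, 8.21 and 7.21 with POSTN, with the conditions overlapping and a difference of 0.24 ± 0.29. The pseudogene MRPL45P2 was within the background range with a mean of 1.95.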

How the data were processed

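Total RNA of 3 control and 3 POSTN samples had been hybridized to Affymetrix U133 Plus 2.0 arrays. The authors summarised the probes with MAS 5.0 and the affy package in R, in versions not given in the sources used. The deposited values are log2 MAS 5.0 signals, in which the 2% trimmed mean of all probe sets on the linear scale is 500 on every array. The table holds 54675 probe sets. Its 62 Affymetrix controls were left out, which left 54613. No 2 arrays held identical values, and 0 columns were unused. The number of arrays, 3 per condition, limits the precision.

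Groups and replicate numbers came from the sample labels. POSTN minus control was fitted with limma 3.58.1 under R 4.3.3 (a linear model per probe set and empirical Bayes with a variance trend) on all probe sets, with Benjamini-Hochberg adjustment over them and a threshold of 0.05. Numbers were compared in the same way with condition as a term. MAS 5.0 subtracts mismatch signal, which widens the log2 spread of dim probe sets. Fold changes were taken as 2 raised to the log2 difference. Symbols came from the annotation of the array, with 1 symbol on 41091 probe sets, several on 1801 and none on 11721. Promoter sequences came from RefSeq (GRCh38.p14), matched by the Entrez gene identifier of the probe set.

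Genes were named by a rule: all called members, per comparison and subunit the 3 largest rises and falls above background, a list of well-studied members, members whose probe sets disagree in sign by over 0.5, and called or extreme genes of the other lists. Members described for arrays that do not overlap, for their range, their interaction or a small p with the block were chosen after their values were seen. The members and lists were chosen with earlier results of these data known. The fit of POSTN minus control has no number term, and the fit with a block for number is an alternative. Same-numbered arrays were taken to belong together, which neither labels nor methods state. Their deviations correlated at 0.529, 0.235 and 0.239 over the 25320 probe sets above background (0.088, 0.034 and 0.025 over all). Across numbers, control 2 with POSTN 3 gave 0.201 and control 3 with POSTN 2 gave 0.150 above background. Deviations of 3 arrays sum to 0, so agreement at number 1 alone raises all these values. They do not show that numbers 2 and 3 are paired.

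Alternatives were quantile normalization, median centring, log2(value + 50), a background filter, dropping probe sets ending in _x_at or _s_at, other choices of probe set, array weights, no variance trend, the replicate block, subunits by structure, the methods' t-test, leaving out each array or both numbered 1, and, chosen after seeing the data, numbers 2 and 3 as 1 level. The limma script was tested on simulated data.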

Additional observations from a re-analysis of the deposited data

How the results depend on the processing

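No MRP gene was called between POSTN and control under any alternative run, the replicate block included (0), nor between numbers 2 and 3. Each number holds 1 control and 1 POSTN array, so the replicate block cannot change the POSTN difference of any gene. The unchanged median POSTN difference (-0.024) and subunit difference (0.011) were therefore fixed by the design and test nothing. The block was run for the POSTN comparison alone, where it added no call. The number of MRP genes called at number 1 (5) was 11 with probe sets above background only, where 21.8% of genes were called, and 11 with the mean of the probe sets. It was 2 with the second brightest probe set and 0 without _x_at and _s_at probe sets, where 44 genes were left. It was 0 without the variance trend, where 0% of all genes were called. With numbers 2 and 3 as 1 level it was 4, where 8.95% of all genes were called, or 0 without the trend, where 0% were. Leaving out 1 array gave 4 to 12, with 12 without the control array numbered 2 and 11 without the POSTN array numbered 2. For the other choices of probe set and the arrays left out, the share of all genes called is not given here. Those counts therefore do not tell whether the MRP genes moved apart from other genes.

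The median POSTN difference over the MRP genes was -0.075 after median centring and 0.020 with the second brightest probe set (30 genes), and -0.033 to 0.0011 without 1 array. The large minus small subunit difference under POSTN was 0.055 without _x_at and _s_at probe sets, 0.032 with the mean of the probe sets, 0.097 with the second brightest, 0.024 without both arrays numbered 1, and 0.0060 to 0.037 without 1 array. At number 1, the median over the MRP genes was 0.016 after quantile normalization, 0.0011 after centring, -0.033 without _x_at and _s_at probe sets, 0.066 with the second brightest and -0.034 to -0.0090 without 1 array. The subunit difference there (-0.022) was 0.045, 0.041 and 0.026 after quantile normalization, without _x_at and _s_at probe sets and with the second brightest, -0.069 with the mean of the probe sets, and -0.043 to 0.0066 without 1 array. Between numbers 2 and 3 the median was -0.13 after centring, -0.021 with the second brightest and -0.073 to -0.016 without 1 array. The subunit difference there (0.0050) was 0.0081 after quantile normalization, 0.030 without _x_at and _s_at probe sets, -0.00014 with the mean of the probe sets, 0.014 with the second brightest and -0.018 to 0.025 without 1 array. The cause of these shifts was not tested.

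Of the named calls, MRPS11 was not called with the mean of its probe sets (0.38, adjusted p = 0.065), nor MRPL23 with numbers 2 and 3 as 1 level (adjusted p = 0.060). Between 1 and 3 arrays per group and number limit the precision of every value, and 127 of the 140 probe sets lay above background.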
